A study of Mus musculus with 10 samples.

Results

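Pitx1, Pou1f1, Lhx3, Lhx4, Isl1, Neurod1 and Neurod4 are transcription factors that direct pituitary development and the identity of its hormone-producing cells. These 7 genes were picked by symbol, through their Ensembl identifiers, from a table of 55416 genes. All 7 passed the filter on low counts and stood among the 20550 genes tested. Each had a value in all 10 libraries.

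The Musashi proteins (Musashi1 and Musashi2) bind RNA at short motifs, above all in 3′ untranslated regions (UTRs), and control how much protein is made from the bound mRNA. Homeodomain factors bind DNA through a helix-turn-helix fold, and LIM homeodomain factors also carry LIM domains that bind cofactors such as Ldb1. Basic helix-loop-helix (bHLH) factors such as the NeuroD proteins bind DNA as dimers with widely expressed E proteins and are known for driving differentiation of neurons and endocrine cells.

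Pituitary RNA was pulled down from lysates with antibodies to Musashi1 and Musashi2 used together (Musashi IP), or with rabbit IgG as the control. The mice were sighted FVB mice (FVB.129P2-Pde6b+Tyrc-ch/Ant), aged 8 to 10 weeks and labelled as controls, and each lysate pooled 6 pituitaries and was split equally between the antibodies. Lysates 2, 5 and 6 came from females and lysates 3 and 7 from males. The labels speak of immunoprecipitations on 6 occasions, 3 for each sex, so each lysate is treated as its own set of mice; the male pair beyond these was not analysed here. An IgG library holds RNA that came down with control IgG, not the input RNA of the lysate. Pooling means that a value is an average over the cells of 6 pituitaries, and the pooled antibodies do not separate Musashi1 from Musashi2.

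Library totals ran from 6.67 to 13.0 M counts. In the IgG libraries, the summed level of 8 hormone-cell markers was between 13174 and 51362 CPM (counts scaled to library size, after adjustment by the trimmed mean of M values, TMM), with Lhb at 0 counts in every library of the series. How reads were counted is not given, so the 0 of Lhb is not read as absence of its mRNA. IgG 2 stood apart: 6 endothelial markers summed to 312 CPM, against 71.6 to 121 in the other IgG libraries and 64.7 in Musashi IP 2. Its 7 fibroblast and mural markers summed to 1283 CPM, against 289 to 656. Its 8 hormone-cell markers summed to 51362 CPM, against 13174 to 23113, and its 5 erythroid markers to 1248 CPM, against 461 to 653. In lysate 6 the log2 ratios of all tested genes were spread most widely, with an interquartile range of 1.35 against 0.51 to 0.69 in the other lysates. The antibody effects of Pitx1 and Neurod4 and the sex difference of Neurod4 are therefore also given without lysate 2 and without lysate 6. Log2 fold changes of genes on the related lists, and marker sums, are given with all lysates.

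Sequences that match the Musashi motif were searched in the longest annotated 3′ UTR of each factor, on the RNA strand only, as a G or an A, then 1 to 3 U, then AGU; matches may overlap. The windows printed here show the match of the factor most enriched in Musashi IP (Pitx1), 3 of the 6 matches of the other enriched factor (Neurod4), all 4 of the factor with the densest matches (Pou1f1), and, for contrast, the match of Isl1 and 1 of the 5 of Neurod1. They come from the GENCODE M21 transcripts on GRCm38, read 5′ to 3′ with T for U. Capitals mark the match named on the line, and positions count bases after the stop codon. Other matches inside a window stay in lower case, as at 1094 to 1098 and 1110 to 1114 in that of Neurod1.

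Pitx1, 998 to 1002: tctattaaaaccATAGTcggagcgtgctaa
Neurod4, 2050 to 2054: actttggagaatGTAGTacatgtgaaccag
Neurod4, 2109 to 2115: attaaatacaaATTTAGTactgtactatgc
Neurod4, 2155 to 2161: ctttaaataatGTTTAGTcttctgggagtg
Pou1f1, 67 to 72: gaaaaatcagaaGTTAGTcacttggttaaa
Pou1f1, 505 to 509: acactcagtgagGTAGTgctaactgggagg
Pou1f1, 544 to 548: acacatgtgaatATAGTagtttacaatttc
Pou1f1, 547 to 551: catgtgaatataGTAGTttacaatttcctt
Isl1, 870 to 874: ccaaagatgtgtATAGTtattggttaaaat
Neurod1, 1101 to 1106: cctgtgtagtcaGTTAGTacagtagtttaa

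A match is a run of letters, not a shown binding site. Of 13665 tested genes with a 3′ UTR of at least 100 bases, 73.2% held a match, with a median of 2 matches and 1.51 per kb. Pou1f1 had 4 matches in 702 bases, or 5.70 per kb, a density above that of 97.3% of those genes. Neurod1 had 5 matches in 1443 bases (3.47 per kb), and Neurod4 had 6 in 2259 bases (2.66 per kb). Lhx4, with the longest 3′ UTR of the 7 at 4191 bases, had 8 matches, or 1.91 per kb. Pitx1 had 1 match in 1018 bases and Isl1 had 1 in 1199 bases. Lhx3 had no match in 881 bases. The 3′ UTR of Pitx1 was also the richest in G and C among the 7, at 62.1%, against a median of 44.6% over those genes.

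The shorter core UAG occurred 7 times each in the 3′ UTRs of Pitx1 and Lhx3, 11 times in Isl1, 12 times in Pou1f1, 20 times in Neurod1, 39 times in Neurod4 and 45 times in Lhx4. The order of the factors by match density was not their order by recovery in Musashi IP, as the map of matches shows. Over all tested genes with a 3′ UTR, 87.5% of the enriched and 68.1% of the other genes held a match, and the median 3′ UTR was 2076 bases long in the enriched genes and 994.5 bases in the others.

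**Figure D1:**
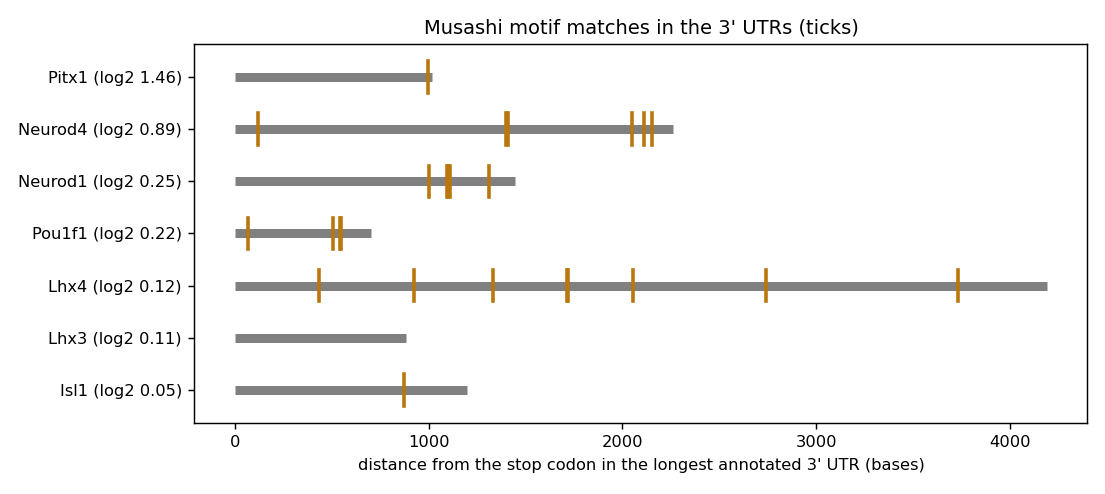
Matches to the Musashi motif (ticks) along the longest annotated 3′ UTR of each factor (grey bar, bases from the stop codon), ordered by the log2 fold change of Musashi IP over IgG given in brackets. The single match of Pitx1 lies close to the end of its 3′ UTR, Neurod4 has 6 matches, and Lhx3 has none.

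Levels in IgG spanned a wide range among the 7 factors. Per kb of exon, the scale on which genes can be compared, Pou1f1 was the highest at 50.0 ± 5.94 CPM (SD, n = 5 libraries here and for the next 6 values). Lhx3 followed at 34.6 ± 2.63, Neurod4 at 14.8 ± 8.31, Pitx1 at 14.2 ± 2.62 and Isl1 at 4.78 ± 0.908 CPM per kb. Neurod1, at 1.07 ± 0.258, and Lhx4, at 0.368 ± 0.289 CPM per kb, were near the bottom. Neighbours in this order did not overlap in the 5 IgG libraries, apart from Neurod4 and Pitx1: Neurod4 ran from 6.73 to 24.9 and Pitx1 from 10.8 to 17.8 CPM per kb. With the longest transcript as the length, Pitx1 (15.4) stood above Neurod4 (14.8), and the rest of the order was as before.

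Pitx1 and Neurod4 were enriched in Musashi IP over IgG, and the other 5 factors did not pass the test. Pitx1 rose 2.75-fold and Neurod4 1.85-fold. By edgeR's quasi-likelihood test with the lysate as a block and Benjamini-Hochberg adjusted p under 0.05 over all genes, 3804 of 20550 genes (18.5%) were enriched and 1727 (8.4%) were lower. The count of 2 enriched factors of 7 therefore stands beside a share of 18.5% of all genes. None of the 7 was lower by this test, against 8.4% of all genes, and with 7 factors such a count is near that share. None was lower at an unadjusted p under 0.05 either. The same held by DESeq2, with 1458 lower genes, and by limma-voom, with 1803. The median log2 fold change of the 7 was 0.22, and that of all genes was -0.07. Scaling by library totals shifted the median of all genes to -0.24 and the split to 3153 enriched and 4068 lower genes, with the same 2 factors enriched.

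Pitx1 is a paired-like homeodomain factor, known as an activator of Pomc and of other pituitary hormone genes. In IgG it measured 47.3, 40.4, 38.0, 34.1 and 28.7 CPM in lysates 2, 3, 5, 6 and 7, from 219 to 423 counts. In Musashi IP it measured 101, 79.0, 90.6, 189 and 83.2 CPM in the same order, from 728 to 1929 counts. Every Musashi IP library was above every IgG library, a separation seen in 9.7% of all genes tested, and Pitx1 was the only factor of the 7 with it. The mean was 37.7 ± 6.95 CPM in IgG and 109 ± 45.7 CPM in Musashi IP (SD, n = 5).

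The ratio of Pitx1 was lowest in lysate 3, at a log2 of 0.96, and highest in lysate 6, at 2.46, with 1.09, 1.25 and 1.53 in lysates 2, 5 and 7. The fitted log2 fold change was 1.46 ± 0.21 (SE; edgeR adjusted p = 0.00382), above that of 97.3% of the genes tested and at rank 558 among the 3804 enriched genes. Without lysate 6 it was 1.21 ± 0.10 (edgeR adjusted p = 3.58e-05), and without lysate 2 it was 1.60 ± 0.22 (edgeR adjusted p = 0.00133). Pitx1 kept its call under each of the 14 alternatives run, with the log2 fold change between 1.21 and 1.60.

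**Figure D2:**
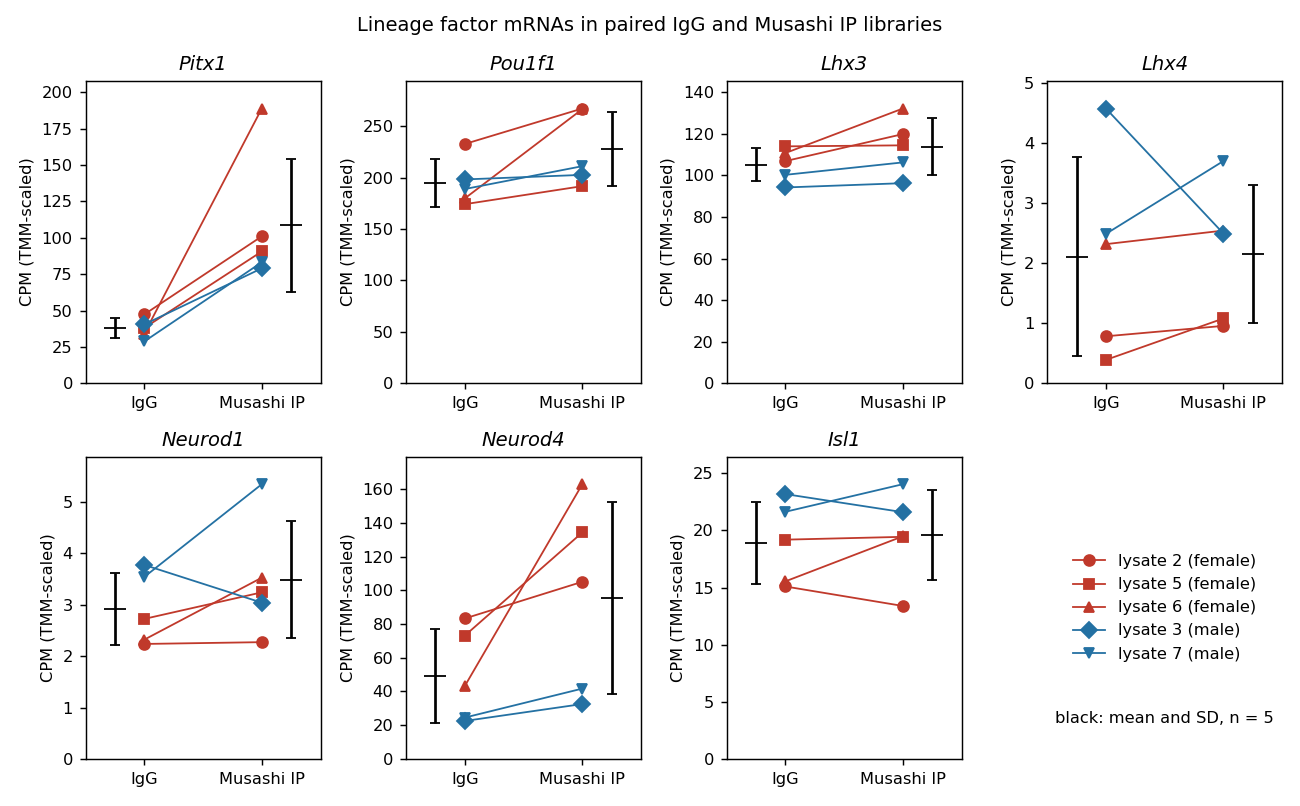
CPM (TMM-scaled, linear axes from 0) of each factor in the IgG and Musashi IP libraries, with a line joining the libraries of a lysate, females in red and males in blue; black marks give the mean and SD of 5 libraries. All 5 lines rise for Pitx1, Neurod4, Pou1f1 and Lhx3, steeply only for Pitx1 and Neurod4, and the groups are fully apart only for Pitx1.

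Neurod4 is a bHLH factor needed for the maturation of growth hormone cells. Its IgG levels were 83.3, 22.5, 73.1, 43.3 and 24.5 CPM in lysates 2, 3, 5, 6 and 7, and its Musashi IP levels were 105, 32.6, 134, 163 and 41.7 CPM, from 167 to 1664 counts. The antibody groups overlapped, with male lysates 3 and 7 low in both. Within each sex every Musashi IP library was above every IgG library. With so few lysates per sex this is easily reached, and its share of all genes was not computed. The log2 ratios were 0.33, 0.53, 0.88, 1.91 and 0.76, above 0 in 5 of 5 lysates.

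The fitted log2 fold change of Neurod4 was 0.89 ± 0.21 (SE; edgeR adjusted p = 0.0166), above that of 91.1% of the genes tested. Without lysate 5 the log2 fold change was 0.89 and no longer passed (edgeR adjusted p = 0.0673), and without the lysate block it was 0.95 and did not pass (edgeR adjusted p = 0.217). Without lysate 6 it was 0.63 ± 0.10 and passed (edgeR adjusted p = 0.00152), and without lysate 2 it was 1.08 ± 0.21 and passed (edgeR adjusted p = 0.00536).

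Neurod1, the bHLH relative known for activating Pomc in corticotrophs, was sparse, with 19 to 62 counts per library. It measured 2.24 to 3.77 CPM in IgG, with a median of 2.72, and 2.27 to 5.34 CPM in Musashi IP, with a median of 3.24. The ratio was below 0 in lysate 3 (log2 -0.29) and above 0 in the other 4 lysates, up to 0.56 in lysate 7. The fitted log2 fold change was 0.25 ± 0.20 (SE; edgeR adjusted p = 0.369).

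Pou1f1 is the POU homeodomain factor of growth hormone, prolactin and thyrotropin cells, and activates Gh, Prl and Tshb. In lysates 2, 3, 5, 6 and 7 it measured 233, 198, 174, 180 and 189 CPM in IgG and 267, 203, 192, 267 and 211 CPM in Musashi IP, with at least 1342 counts per library. The groups overlapped, although the ratio was above 0 in 5 of 5 lysates, between a log2 of 0.03 in lysate 3 and 0.57 in lysate 6. The fitted log2 fold change was 0.22 ± 0.10 (SE; edgeR adjusted p = 0.127). It passed under 1 alternative, the correction for transcript length and GC content, at 0.37 (edgeR adjusted p = 0.0254). Other alternatives lowered it, to 0.01 with protein-coding genes only (edgeR adjusted p = 0.925) and 0.04 under library totals (edgeR adjusted p = 0.700).

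Lhx3 and Lhx4 are LIM homeodomain factors required for growth of Rathke's pouch, the embryonic source of the anterior pituitary. Lhx3 measured 107, 94.2, 114, 111 and 100 CPM in IgG and 120, 96.3, 114, 132 and 106 CPM in Musashi IP, in lysates 2, 3, 5, 6 and 7. The log2 ratios ran from 0.01 in lysate 5 to 0.25 in lysate 6, the groups overlapped, and the fitted log2 fold change was 0.11 ± 0.09 (SE; edgeR adjusted p = 0.363). Lhx4 was the sparsest factor, with 3 to 43 counts per library. It measured 0.783, 4.58, 0.389, 2.32 and 2.49 CPM in IgG and 0.956, 2.50, 1.08, 2.55 and 3.71 CPM in Musashi IP. Its log2 ratios ran from -0.82 in lysate 3 to 1.09 in lysate 5, and the fitted value was 0.12 ± 0.30 (SE; edgeR adjusted p = 0.782). This SE was the widest of the 7.

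Isl1, a LIM homeodomain factor of thyrotrophs and gonadotrophs, measured 15.1, 23.2, 19.2, 15.5 and 21.6 CPM in IgG and 13.4, 21.6, 19.4, 19.5 and 24.1 CPM in Musashi IP. The ratio was above 0 in 3 of 5 lysates, and the fitted log2 fold change was 0.05 ± 0.12 (SE; edgeR adjusted p = 0.775). Direction is not fixed for these 3 LIM factors: with library totals as the scaling Lhx3 stood at -0.07, Lhx4 at -0.05 and Isl1 at -0.13, none past the test.

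**Figure D3:**
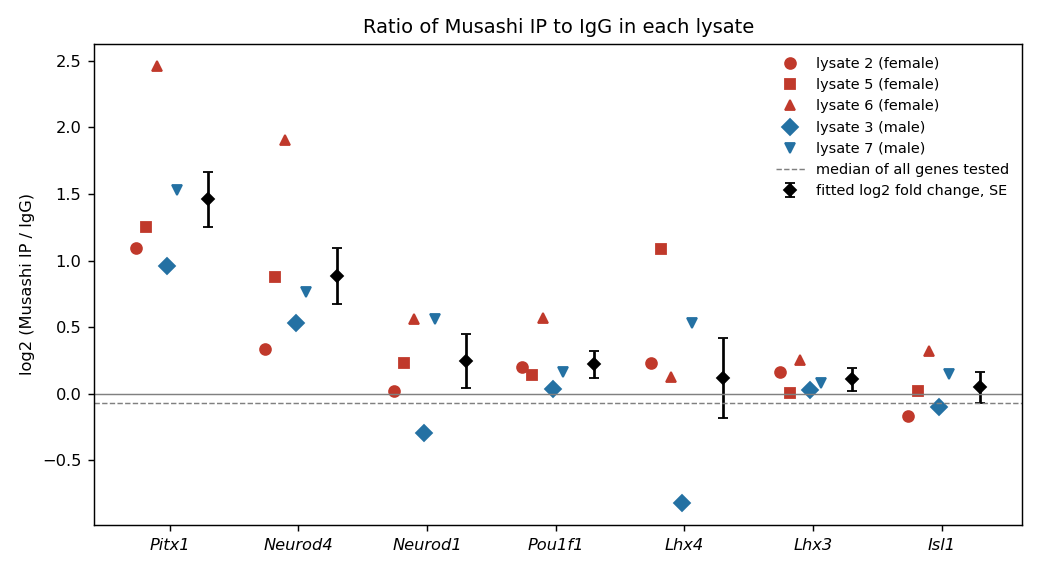
Log2 ratio of Musashi IP to IgG in each lysate (coloured markers, prior count of 2) and the fitted log2 fold change with its SE (black); the dashed line is the median of all genes tested, -0.07. Lysate 6 is the highest for Pitx1, at 2.46, and for Neurod4, at 1.91, while the markers of Lhx3 and Isl1 lie between -0.17 and 0.32.

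Related factors were also set against each other within lysates, over 8 pairs chosen with the values known. The log2 ratio of Neurod4 exceeded that of Neurod1 by 0.66 ± 0.46 and that of Pitx1 exceeded Neurod4 by 0.58 ± 0.18 (SD), each in 5 of 5 lysates. For both pairs the two-sided exact sign-flip test gave p = 0.0625 (0.0833 after Benjamini-Hochberg adjustment over the 8 pairs), the smallest p that 5 lysates allow. Lhx3 and Lhx4 differed by -0.12 ± 0.72 (SD; exact p = 0.688), and Isl1 and Isl2 by -0.25 ± 0.38 (SD; exact p = 0.25, adjusted 0.286); the wide spreads leave room for differences in either direction.

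Genes with the most similar set of 5 lysate ratios were found among 10864 genes with a symbol and at least 8 CPM on average, by the root mean square difference of the log2 ratios. For Pitx1 they were Pik3r3 and Ap3m2, with a root mean square difference of 0.0852 and 0.0855, against a median of 1.42 over the genes compared. For Neurod4 they were Stmn1 (0.0507) and Lmbrd2 (0.0539), against a median of 0.930. Pou1f1 was closest to Acad8 and Ric8a, Lhx3 to Trub2 and Nit1, Neurod1 to Nutf2 and Otub2, and Isl1 to Anp32b and Urgcp. The nearest genes to the sparse Lhx4, Gbgt1 and Smim11, were farther away, at 0.353 and 0.357. All genes share the same 5 pairs of libraries, so this likeness is a description of these libraries.

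In females, Pitx1 and Neurod4 were again the enriched factors, beside 2383 enriched genes of 20550 (11.6%). Pitx1 had a log2 fold change of 1.60 ± 0.28 (SE; edgeR adjusted p = 0.0195) and Neurod4 of 1.04 ± 0.27 (SE; edgeR adjusted p = 0.0462) over the 3 female lysates. Without lysate 5 neither passed in females (edgeR adjusted p = 0.137 for Pitx1 and 0.177 for Neurod4). Neurod4 was also lost without lysate 3 (edgeR adjusted p = 0.0737) and without lysate 7 (edgeR adjusted p = 0.0724), male lysates that enter the shared estimate of spread. Without lysate 2 the female log2 fold changes were 1.93 for Pitx1 and 1.45 for Neurod4, and without lysate 6 they were 1.17 and 0.61; all 4 passed (highest edgeR adjusted p = 0.0436).

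In the 2 male lysates Pitx1 had a log2 fold change of 1.25 ± 0.33 (SE; edgeR adjusted p = 0.299) and Neurod4 of 0.65 ± 0.34 (SE; edgeR adjusted p = 0.463), so 0 of the 7 factors passed. By edgeR 0 of 20550 genes (0%) were enriched in males, with 2548 genes at an unadjusted p under 0.05; limma-voom called 0 and DESeq2 544. Among the factors, DESeq2 called Pitx1 (adjusted p = 0.0172), limma-voom called 0, and 1 factor had an unadjusted p under 0.05. Without lysate 6 the SE of Pitx1 in males was 0.16, and Pitx1 (edgeR adjusted p = 0.00343) and Neurod4 (edgeR adjusted p = 0.0460) both passed in males, beside 1747 enriched genes. Without lysate 2, Pitx1 passed (edgeR adjusted p = 0.00120), beside 1883 enriched genes.

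The difference between the sexes in this effect was tested directly. The female minus male difference in log2 fold change was 0.35 ± 0.43 for Pitx1 and 0.38 ± 0.43 for Neurod4 (SE; edgeR adjusted p = 1 for each), and 0 of the 7 factors and 0% of all genes passed. At an unadjusted p under 0.05 the counts were 0 factors and 187 genes, and DESeq2 and limma-voom called 0 factors. These estimates fell to -0.07 and -0.05 without lysate 6, so their direction is not fixed.

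Neurod4 was the factor whose level differed between the sexes, in IgG as well as in Musashi IP libraries. In IgG it measured 83.3, 73.1 and 43.3 CPM in female lysates 2, 5 and 6, against 22.5 and 24.5 CPM in male lysates 3 and 7. The sexes did not overlap, as was also so for Lhx3, Lhx4, Isl1 and Neurod1 in IgG. With 3 female and 2 male libraries this is easily reached, and its share of all genes was not computed. The log2 difference of Neurod4 was 1.49 ± 0.26, or 2.82-fold (SE; edgeR adjusted p = 0.00780). In Musashi IP, females measured 105, 134 and 163 CPM and males 32.6 and 41.7 CPM, a log2 difference of 1.83 ± 0.26, or 3.54-fold (SE; edgeR adjusted p = 0.00421).

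Few genes passed the same test between the sexes after adjustment, with 3 female and 2 male libraries. At an unadjusted p under 0.05 by this edgeR test there were 3496 genes in IgG and 3505 in Musashi IP. In IgG, 558 of 20987 genes (2.66%) were higher in females and 387 (1.84%) were higher in males; in Musashi IP the counts were 403 of 21238 (1.9%) and 201 (0.946%). Neurod4 was at rank 356 of the 558 genes by log2 difference. In IgG the call was lost without lysate 3 (log2 1.44, edgeR adjusted p = 0.167) and without lysate 7 (log2 1.56, edgeR adjusted p = 0.131), each of which leaves 1 male library that is assumed to vary like the females. In Musashi IP it was lost without lysate 3 (log2 1.68, edgeR adjusted p = 0.0683) and without lysate 5 (log2 1.82, edgeR adjusted p = 0.0538). Without lysate 2, the lysate with the stand-apart IgG library, the log2 difference was 1.31 in IgG (edgeR adjusted p = 0.00259) and 1.94 in Musashi IP (edgeR adjusted p = 0.000411). Without lysate 6 it was 1.73 in IgG (edgeR adjusted p = 0.000178) and 1.70 in Musashi IP (edgeR adjusted p = 0.00238). In such bulk libraries, fewer cells of a type and less RNA per cell cannot be told apart.

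Hormone genes moved with sex in the same IgG libraries. Prl measured 11997 to 39113 CPM in females and 1531 to 3056 CPM in males (log2 3.27, edgeR adjusted p = 0.00442). Higher in males was Tshb, at 48.7 to 49.8 against 16.0 to 22.9 CPM (log2 -1.42, edgeR adjusted p = 0.00250). Fshb was also higher in males, at 156 to 171 against 17.8 to 37.1 CPM (log2 -2.43, edgeR adjusted p = 0.000330). So was the receptor gene Ghrhr (log2 -1.29, edgeR adjusted p = 0.00773). Gh measured 3424 to 11074 CPM in females and 10281 to 16878 CPM in males. It leaned to males and did not pass (log2 -0.95, edgeR adjusted p = 0.247). Of the 7 hormone-cell markers tested, 1 was higher in females and 3 in males. The hormone-cell sum was 15889 to 51362 CPM in females and 13174 to 21919 CPM in males. IgG 2 alone set the female top, and the highest other IgG library was at 23113 CPM. Of 5 neuronal markers tested, Slc17a6, which encodes a vesicular glutamate transporter, was higher in females, at 41.6 to 59.8 against 14.2 to 14.8 CPM. The fibroblast and mural sum was 592 to 1283 CPM in females and 289 to 401 CPM in males, with 1 of 7 markers past the test. Its female top was also IgG 2, and the highest other IgG library was at 656 CPM. The part of these markers in the Neurod4 difference was not tested.

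The other 6 factors did not pass the test between the sexes, in IgG or in Musashi IP. Lhx4 measured 0.783, 0.389 and 2.32 CPM in female and 4.58 and 2.49 CPM in male IgG libraries, so the sexes did not overlap; the log2 difference was -1.58 ± 0.60 (SE; edgeR adjusted p = 0.200). Without lysate 6 Lhx4 passed in IgG, at -2.54 (edgeR adjusted p = 0.0240), and it also passed with no filter on low counts, at -1.57 (edgeR adjusted p = 0.0173). Isl1 was lower in each female IgG library (15.1 to 19.2 CPM) than in the male ones (21.6 to 23.2 CPM), with a log2 difference of -0.44 ± 0.22 (SE; edgeR adjusted p = 0.352). Neurod1 gave -0.60 ± 0.35 (SE; edgeR adjusted p = 0.454) in IgG. The sexes did not overlap in IgG for Neurod1 either, at 2.24 to 2.72 CPM in females and 3.54 to 3.77 in males. The same held for Lhx3, at 107 to 114 CPM in females and 94.2 to 100 in males. Groups of 3 and 2 libraries separate easily, and the share of all genes so separated was not computed. Pitx1, Lhx3 and Pou1f1 had log2 differences of 0.20 ± 0.22, 0.18 ± 0.15 and 0.01 ± 0.17 (SE; edgeR adjusted p = 0.728, 0.638 and 0.989). In Musashi IP the largest of the 6 were Lhx4, at -1.03 ± 0.47, and Pitx1, at 0.61 ± 0.31 (SE; edgeR adjusted p = 0.311 and 0.357).

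**Figure D4:**
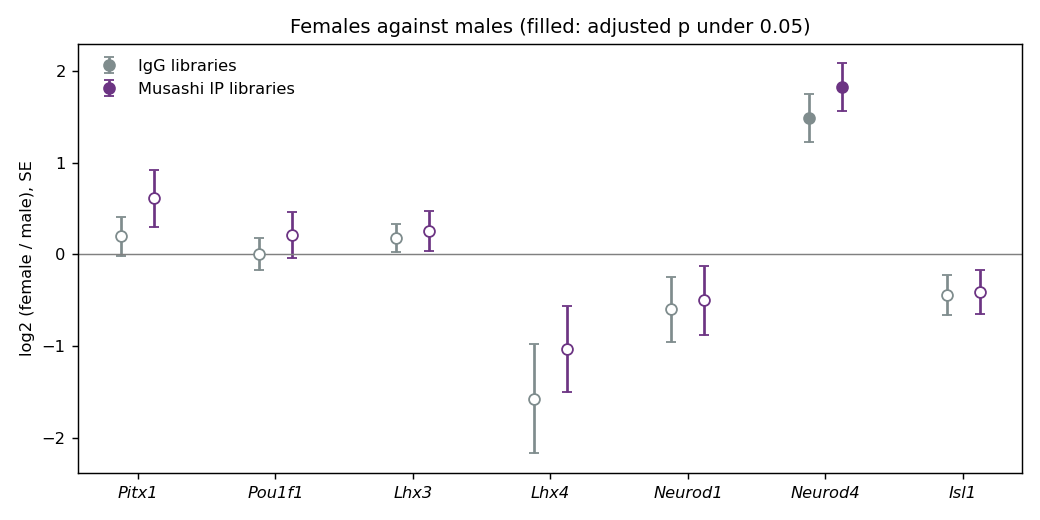
Log2 difference between females and males, with its SE, for each factor in the IgG libraries (grey) and the Musashi IP libraries (purple), 3 female against 2 male; filled markers have an edgeR adjusted p under 0.05. Neurod4 alone is filled, at 1.49 in IgG and 1.83 in Musashi IP.

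Partners and targets of the 7 factors were taken from lists. Their counts stand beside 18.5% of all genes enriched and 8.4% lower. The lists were chosen with earlier results of these data known, so a count above these shares is a description and not a test. Of 21 other homeobox genes, 15 were tested, 5 were enriched in Musashi IP and 0 were lower, with a median log2 fold change of 0.31. Among the enriched genes were Six6 (1.24 ± 0.25, SE), which acts in growth of the pituitary, Pax7 (0.80), the selector of melanotrophs, and Pbx2 (0.44). Six6 and Pax7 kept their call under all 14 alternatives, and Pbx2 kept it under 7 of 14. The count of 5 fell to 3 without lysate 7. Under library totals 4 of the 15 were enriched and 1 was lower.

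Of 10 cofactors of LIM proteins, all tested, 3 were enriched and 0 were lower, with a median of 0.26. Rlim, the ubiquitin ligase that targets LIM cofactors for degradation, had a log2 fold change of 1.41 ± 0.21 (SE; edgeR adjusted p = 0.00399), and its mean rose from 139 ± 21.8 to 391 ± 168 CPM (SD, n = 5). Lmo3, a LIM-only protein, had 1.22, and Ssbp3, a partner of Ldb1, had 0.47. Ldb1 itself, the cofactor bound by Lhx3 and Isl1, was at 0.08 ± 0.09 (SE; edgeR adjusted p = 0.491). Rlim kept its call under all 14 alternatives, and only Rlim did so on this list: without lysate 5 the count was 1, while without lysate 2 it was 5. Under library totals, with its lower median for all genes, 2 of the 10 were lower.

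Of 17 other bHLH and Id genes, 12 were tested, 5 were enriched and 0 were lower, with a median of 0.22. The Id proteins lack the DNA-binding region and sequester E proteins, the partners of Neurod1 and Neurod4. Id4 had the largest log2 fold change, 1.64 ± 0.24 (SE; edgeR adjusted p = 0.00405), and Hes6 (1.48), Bhlha15 (1.36) and Id2 (1.06) were also enriched. The E protein genes Tcf3, Tcf4 and Tcf12 were at 0.18, -0.07 and -0.05 and did not pass. Id4, Hes6 and Bhlha15 kept their call under all 14 alternatives, and Id2 under 10.

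Of 18 other lineage factors, 16 were tested, 9 were enriched and 0 were lower, with a median of 0.55. Those of largest change were Nr5a1 (1.37 ± 0.22, SE), the nuclear receptor of gonadotrophs and a partner of Pitx1, Sox9 (1.24), Gata2 (0.98), Foxo1 (0.88), Insm1 (0.85) and Stat3 (0.71). Nr5a1 and Stat3 kept their call under all 14 alternatives. The count fell to 3 without lysate 5, to 6 without lysate 7 and to 5 without the lysate block. Tbx19, the corticotroph factor that acts with Pitx1 on Pomc, was at 0.15 ± 0.10 (SE; edgeR adjusted p = 0.281).

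Of 10 hormone and receptor genes that these factors activate, 9 were tested, 3 were enriched and 0 were lower, with a median of 0.04. Fshb had a log2 fold change of 2.28 ± 0.37 (SE; edgeR adjusted p = 0.00492), with a mean of 83.7 ± 73.5 CPM in IgG and 429 ± 336 CPM in Musashi IP (SD, n = 5). Gnrhr, the receptor for gonadotropin-releasing hormone, had 1.61 ± 0.23 (SE; edgeR adjusted p = 0.00387), and Trhr had 0.51. Gnrhr kept its call under all 14 alternatives, Fshb lost it without the lysate block (edgeR adjusted p = 0.0649), and Trhr kept it under 3 of 14. Gh, Prl, Pomc and Tshb, the hormone genes tied to Pou1f1 and Pitx1, were at -0.19, 0.04, 0.04 and -0.28 and did not pass. Under library totals 2 of the 9 were enriched and 1 was lower, and the median of this list was -0.14, so its sign depends on the scaling.

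**Figure D5:**
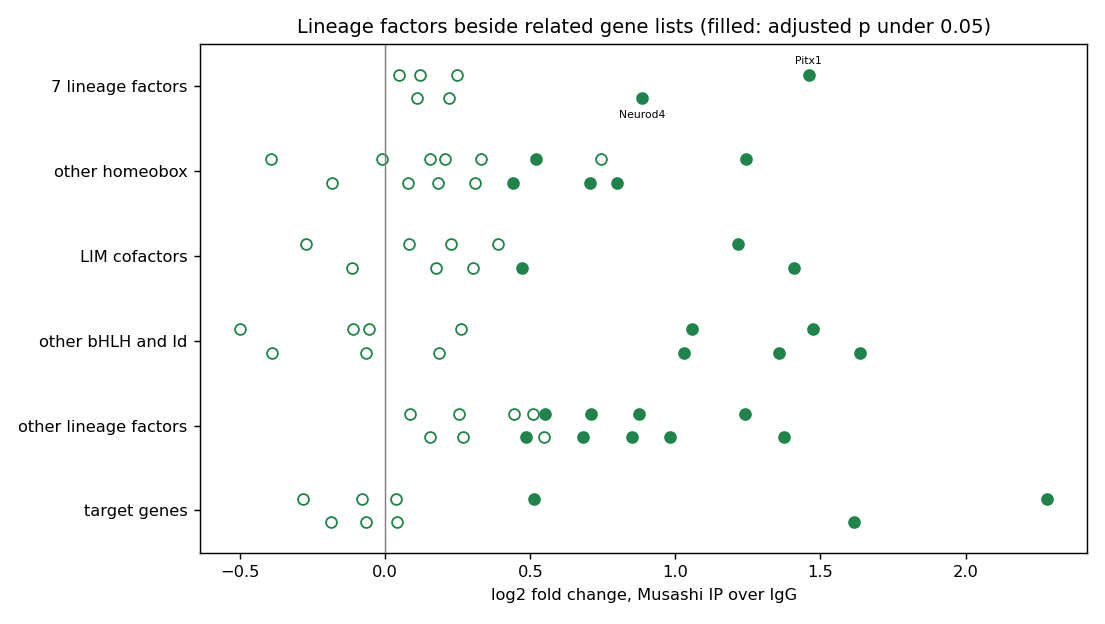
Log2 fold change of Musashi IP over IgG for the 7 lineage factors and the tested genes of 5 related lists; filled markers have an edgeR adjusted p under 0.05, and the 2 enriched lineage factors are named. Each list holds enriched genes (2, 5, 3, 5, 9 and 3 from top to bottom) as well as genes near 0, and at the TMM scaling drawn here none holds a gene that was lower.

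Some markers of other cell types also passed the antibody test. Over all genes, 18.5% were enriched and 8.4% were lower, so counts on such short lists can lie near these shares. Of 8 stem-cell markers 4 were enriched, of 5 neuronal markers tested 2 were enriched, and of 7 hormone-cell markers tested 1 was enriched. Lower in Musashi IP were 3 of 4 erythroid and 2 of 5 immune markers tested, while none of 6 endothelial and 7 fibroblast and mural markers passed in edgeR. The stem-cell sum ran from 62.6 to 113 CPM in IgG and from 120 to 179 CPM in Musashi IP. Their part in the results for Pitx1 and Neurod4 was not tested.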

How the data were processed

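The authors deposited raw read counts per Ensembl gene, whole numbers with no normalization, for 10 libraries; the library kit was TruSeq Stranded Total RNA Gold, per the labels. FastQC 0.11.8, Trimmomatic 0.39, STAR 2.7.1a and the build GRCm39 are named in the submitters' processing notes. How reads were counted (program, strand setting, reads with several matches) is not given in the sources used here, so reads from a gene and an overlapping gene on the other strand may not be separated. Symbols, lengths and 3′ UTRs came from GENCODE M21 on GRCm38 by gene ID (52135 of 55416 IDs, 94.1%), so no genome coordinates are given; on that annotation Pitx1 and Isl1 lie on chromosome 13, Lhx3 and Neurod1 on 2, Lhx4 on 1, Pou1f1 on 16 and Neurod4 on 10.

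The deposited counts were tested by edgeR 4.0.16 under R 4.3.3 (filterByExpr, TMM factors, glmQLFit, glmQLFTest, Benjamini-Hochberg at 0.05). The code was run on simulated counts with known changes. Those counts held no lysate effect, so they do not check the pairing or the spread between lysates in the sex tests. The antibody comparison used all 10 libraries and blocked on the lysate, which left 4 residual degrees of freedom. The effect nested in sex and its difference, and females against males within the 5 IgG and the 5 Musashi IP libraries, had 3. The SE is the log2 fold change divided by the square root of F. Ratios per lysate used a prior count of 2. Depth was 6.67 to 13.0 M counts, so 1 count equals 0.0768 to 0.150 CPM before the TMM adjustment that the printed CPM carry. No molecular identifiers are described, so counts are not independent molecules. With the lysate as a block, p-values of the antibody effect rest on how the ratio of Musashi IP to IgG varied between lysates. Those of the sex tests within IgG or Musashi IP rest on the spread of levels between lysates.

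The protocol pairs the libraries of a lysate. Their deviations from the group means correlated at 0.523, 0.679, 0.602, 0.186 and 0.778 in lysates 2, 3, 5, 6 and 7; the highest correlation with a library of another lysate was 0.415, 0.539, 0.251, 0.415 and 0.461, above the value within the lysate in lysate 6 only. No libraries were duplicates (highest correlation of log CPM 0.982). Members and lists were chosen with earlier results of these data known. Named were all 7 factors; per list, up to 6 called genes by size; and per factor, the 2 genes of most similar lysate ratios with at least 8 CPM. Other genes were named after their values were seen, and some genes that the rule would name are not reported here. Alternatives were DESeq2 1.42.0 (tool and size factors), limma-voom (limma 3.58.1), library totals, no filter or a filter of 2 CPM in 5 libraries, protein-coding genes only, no replicate block, a length and GC correction, and leaving out each lysate.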

Additional observations from a re-analysis of the deposited data

Results flagged for a closer look

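Pitx1 in Musashi IP was the only one of 21 sets of values checked in which a library stood apart from the rest. Musashi IP 6 was at 189 CPM, against 79.0 to 101 CPM in the other 4 Musashi IP libraries, and its gap to the nearest was 0.80 of the whole range, above the 95% critical value of 0.71 for 5 samples. About 1 in 20 sets passes this limit by chance. Lysate 6 also had the widest spread of ratios over all genes, and without it the log2 fold change of Pitx1 was 1.21.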

How the results depend on the processing

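Pitx1 kept its enrichment under all 14 alternatives. Without the replicate block, 1 factor was enriched (Pitx1), beside 2407 enriched and 176 lower genes. Lower genes numbered 4068 under library totals, 3214 with the 2 CPM filter, 2973 with protein-coding genes only and 3052 with the replicate block plus length and GC correction. Of the 5 factors that did not pass, 3 changed sign: Lhx3, Lhx4 and Isl1 were at -0.068, -0.055 and -0.13 under library totals, at -0.10, -0.094 and -0.16 with protein-coding genes only and at -0.074, -0.21 and -0.048 with the length and GC correction, and Isl1 at -0.050 with the 2 CPM filter. In females 1 factor was enriched with DESeq2 size factors; in males 1 was with DESeq2 and 1 with no low-count filter. Between the sexes in IgG, Lhx4 was the 1 factor higher in males with no low-count filter, and Pou1f1 was at -0.084 under library totals and -0.0014 with limma-voom.

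Leaving out each lysate in turn gave 1 to 2 enriched factors, 1676 to 4651 enriched and 187 to 2101 lower genes; in females 0 to 2 and in males 0 to 2 factors were enriched. The log2 fold change ran from -0.087 to 0.39 for Lhx4 and from -0.052 to 0.15 for Isl1. The female minus male difference ran from -0.075 to 0.64 for Pitx1 and from -0.048 to 0.76 for Neurod4. Factors higher in females numbered 0 to 1 in IgG and 0 to 1 in Musashi IP, and those higher in males in IgG 0 to 1; the sex difference in IgG ran from -0.025 to 0.47 for Pitx1 and from -0.12 to 0.087 for Pou1f1. These fits have fewer samples, and otherwise the cause was not tested. Depth limits Lhx4 (3 to 43 counts) and Neurod1 (19 to 62 counts), and 2 male lysates limit every comparison between the sexes.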
